A study of Mus musculus with 12 samples.

Results

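The comparison was between small RNAs pulled down with tagged AGO2 from nuclei of mouse embryonic stem cells that had received doxycycline and from nuclei of cells that had not. Its members were the miRNA entries whose mean count reached 10 in 1 or both of the nuclear columns, and 371 of the 689 entries in the deposited table met this minimum. All cells in both groups carried the same doxycycline-inducible HA-Flag-AGO2 transgene and were grown with the cytokine LIF on gelatin. The induced group received 2.5 ug/ml doxycycline for 15 h before harvest, the uninduced group received none, and the same anti-FLAG M2 antibody was used for both. Each group had 3 libraries, 6 of the 12 in the series, but each value is the authors' mean over a group. There was therefore no replicate check of any difference, and the intervals given cover counting error only. The labels name no clone, and nothing in them says that the libraries came from separate cultures.

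AGO2 is an Argonaute protein that holds a miRNA and uses it to recognise target RNA. A miRNA is cut from a hairpin precursor as a duplex, of which the guide strand is usually kept in Argonaute while the other, the passenger strand, is usually released and degraded. Older names mark the strand thought to be the scarcer with a star, and give -5p and -3p suffixes where neither strand clearly dominated. The seed, bases 2 to 8 of the miRNA, makes the main contact with targets. In mouse embryonic stem cells the miR-290 cluster, which runs from miR-290 to miR-295, is the main source of miRNA and is known for promoting their rapid cell cycle. Without doxycycline little or no tagged AGO2 should be there for the antibody to bind, so the uninduced libraries are meant as the background of the pull-down. The AGO2 level itself was not analysed here.

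The strands of the miR-290 cluster on chromosome 7 are shown first because they hold most of the reads with doxycycline and because the strands of 1 hairpin differed widely there. Sequences are from RefSeq on GRCm38.p6, the same assembly as mm10, are written 5′ to 3′, and have the seed in capitals.
miR-294: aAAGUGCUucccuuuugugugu
miR-294*: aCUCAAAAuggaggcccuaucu
miR-295: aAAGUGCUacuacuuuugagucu
miR-295*: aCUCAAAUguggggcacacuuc
miR-293: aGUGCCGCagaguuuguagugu
miR-293*: aCUCAAACugugugacauuuug
miR-291a-3p: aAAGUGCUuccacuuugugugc
miR-291a-5p: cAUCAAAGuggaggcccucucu
miR-290-5p: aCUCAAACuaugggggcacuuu
miR-290-3p: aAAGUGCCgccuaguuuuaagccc
On the plus strand, miR-290-5p lay at chr7:3218639-3218660, miR-290-3p at chr7:3218674-3218697, miR-293 at chr7:3220390-3220411, miR-294 at chr7:3220691-3220712 and miR-295 at chr7:3220815-3220837. The GENCODE vM21 annotation had no other gene on that strand at these positions. miR-294, miR-295 and miR-291a-3p share the seed AAGUGCU, and miR-293* and miR-290-5p share CUCAAAC with miR-292-5p.

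The main strands of 5 hairpins of the cluster had between 87.1 and 96.2 times the reads with doxycycline, whereas their partner strands had smaller ratios. miR-294 had a mean of 64361 reads per library with doxycycline and 719 without, a ratio of 89.5 (95% Clopper-Pearson interval 85.8 to 93.5). Its partner miR-294* had 667.1 and 235.8 reads, a ratio of 2.83. miR-295 had 31807 and 357 reads, a ratio of 89.2. Its partner miR-295* had 646 and 462 reads, a ratio of 1.40 (1.305 to 1.499), so that without doxycycline the starred strand outnumbered the guide. miR-290-5p had 8454 and 87.8 reads, a ratio of 96.2. Its partner miR-290-3p was the 1 arm of 14 in the cluster with fewer reads after induction, 195.5 with doxycycline and 260 without, a ratio of 0.752 (0.67 to 0.84). The starred strand of miR-293 had a larger ratio than those of miR-294 and miR-295. miR-293 had 33105 and 380 reads, a ratio of 87.1, and miR-293* had 11575 and 456 reads, a ratio of 25.4. miR-291a-3p had 50213 and 545 reads, a ratio of 92.1, against 14.9 for miR-291a-5p. Both arms of miR-292 were abundant, with 40935 and 990.5 reads for miR-292-5p (ratio 41.3) and 15656 and 298.7 for miR-292-3p (ratio 52.4). miR-291b, the least abundant hairpin, had ratios of 7.35 for its 5p and 17.5 for its 3p arm.

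**Figure D1:**
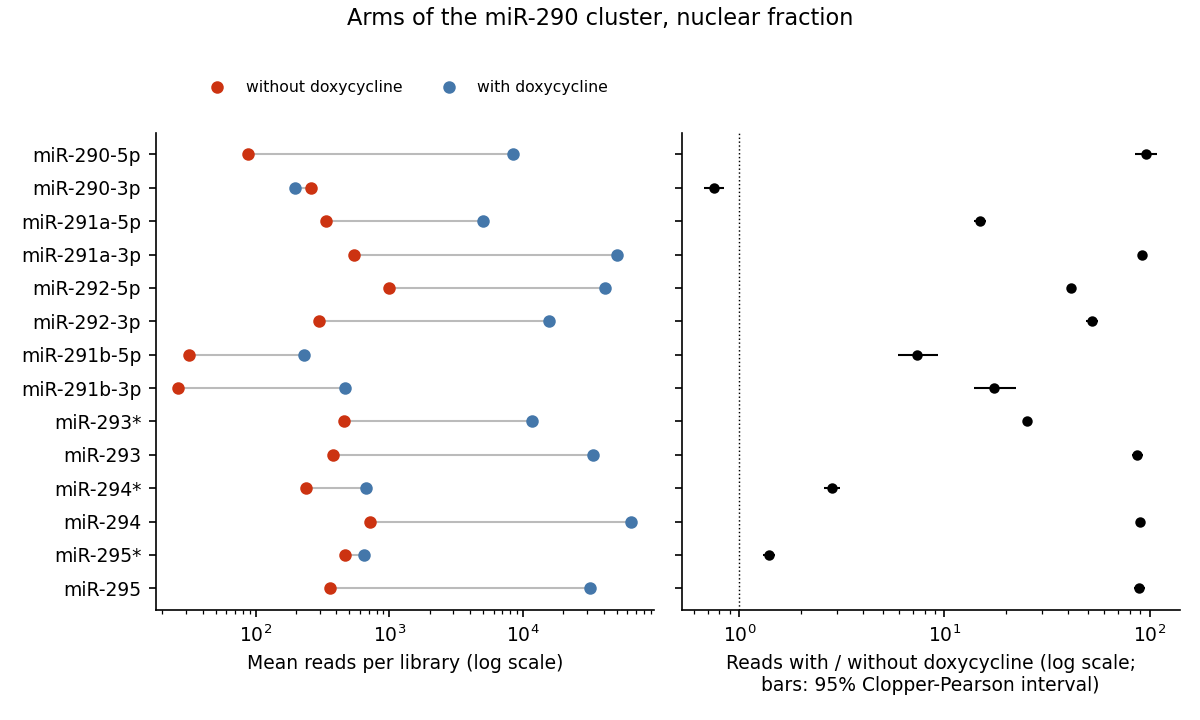
Reads of the 14 arms of the miR-290 cluster in the nuclear fraction, as mean reads per library (left, log scale) and as the ratio of reads with to without doxycycline (right, log scale, bars 95% Clopper-Pearson intervals). miR-294, miR-295, miR-293, miR-291a-3p and miR-290-5p sit between ratios of 87.1 and 96.2, while miR-294*, miR-295* and miR-290-3p sit between 0.752 and 2.83.

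A read ratio mixes induction with how deeply each library was sequenced, and the 2 cannot be told apart. The authors' mean of all miRNA reads was 400794 per library with doxycycline and 36329.9 without, and a count of 0 over a group allowed up to 2.50 and 27.5 CPM, reads divided by that total. miR-805 alone took 63.7% of the uninduced reads and 3.27% of the induced reads. Without doxycycline 175 entries reached 10 mean reads, 167 of which did so with it too, and the rest of the 371 reached it with doxycycline alone. No tested entry was at 0 without doxycycline.

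Shares of strands within a hairpin need no scaling for depth. A starred and an unmarked entry were listed for 107 hairpins, of which 64 had at least 10 mean reads over both strands in each nuclear column. The starred strand took a median of 3.91% of a hairpin's reads with doxycycline and 38.0% without. Its share was lower with doxycycline in 58 of the 64 hairpins and higher in 6. The 95% Wilson intervals did not overlap in 53 of those lower (82.8% of 64) and in 3 of those higher (4.69%). The starred strand held over 50% of the reads of 25 hairpins without doxycycline and of 3 with it. Summed over the 64 hairpins, starred reads went from 2623.1 to 16806.6 per library, 6.41 times, and unmarked reads from 3185.6 to 186280, 58.5 times. The miR-290 cluster did not carry this alone, since without its 3 hairpins the summed starred share was 6.43% with and 45.9% without doxycycline.

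The largest falls of the starred share were in miR-30b, miR-124, miR-193 and miR-200c. For miR-30b, a member of a widely expressed family, the share was 3.47% (2.68 to 4.47) with doxycycline and 86.4% (79.8 to 91.1) without. miR-30b itself had 520 and 6.33 mean reads, while miR-30b* had 18.7 and 40.3. For miR-124, the main miRNA of neurons, the share was 1.18% against 75.6% (71.4 to 79.4), from 2848 and 35.3 reads of miR-124 and 34.0 and 110 reads of miR-124*. For miR-193 the share was 4.40% against 75.8%, and for miR-200c, of the epithelial miR-200 family, 3.71% against 74.9%. In each of these hairpins the starred strand had more reads than its partner without doxycycline and fewer with it. miR-200a and miR-21 followed the same order and their strands are set beside each other here.
miR-200a: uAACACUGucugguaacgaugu
miR-200a*: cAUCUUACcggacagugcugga
miR-21: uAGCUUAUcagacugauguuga
miR-21*: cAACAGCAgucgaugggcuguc
miR-200a lay at chr4:156054911-156054932 on the minus strand, within an intron of Ttll10, and its starred share was 2.65% with doxycycline and 73.9% without. miR-21, which many cell types make and which is often raised in tumours, lay at chr11:86584120-86584141 on the minus strand, within an exon of Vmp1. miR-21 had 2354 mean reads with doxycycline and 81.7 without, whereas miR-21* had 55.3 and 135.8, so the starred share was 2.30% (1.98 to 2.67) against 62.5% (58.7 to 66.1).

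**Figure D2:**
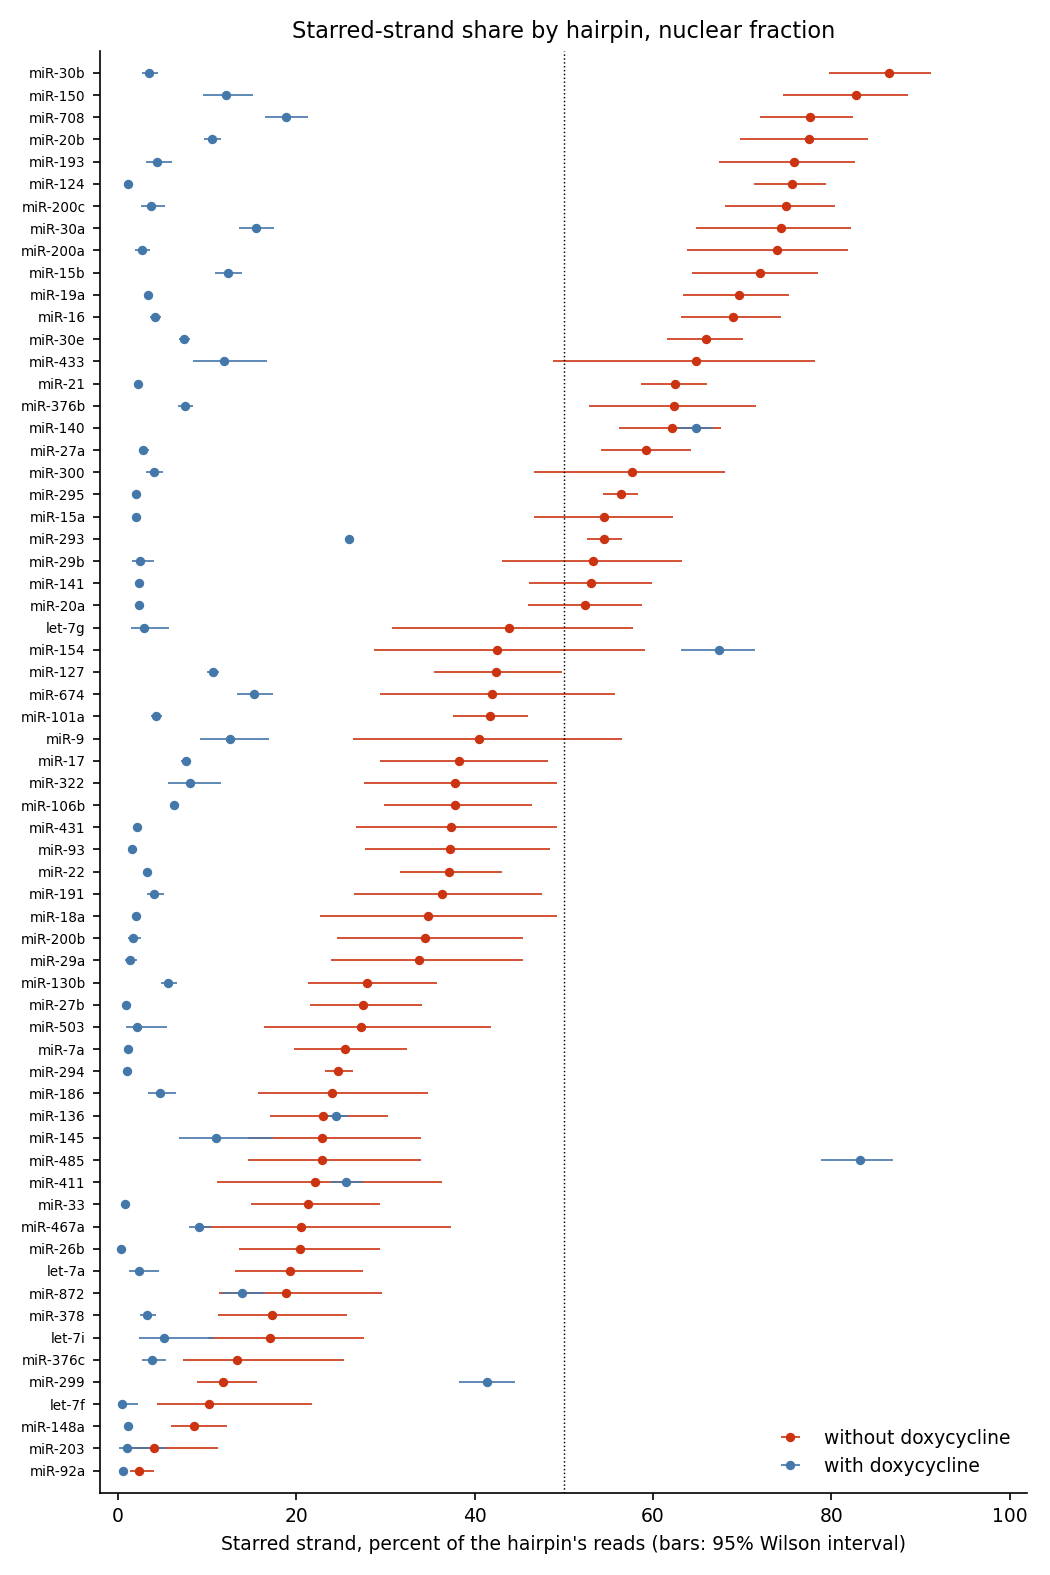
Share of each hairpin's reads that belonged to the starred strand in the nuclear fraction, for 64 hairpins ordered by the share without doxycycline (points, with 95% Wilson intervals; dotted line at 50%). The median lies at 3.91% with doxycycline and 38.0% without, and miR-485, miR-299 and miR-154 are the 3 hairpins whose share was higher with doxycycline with intervals apart.

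Of the 6 hairpins with a higher starred share after induction, 5 belonged to the imprinted Dlk1-Dio3 region on chromosome 12, a large miRNA cluster expressed from the maternal chromosome. The starred strand of miR-485 took 83.2% (78.8 to 86.9) with doxycycline and 22.9% (14.6 to 33.9) without. miR-485 itself had about equal reads, 18.3 and 18, while miR-485* had 91.0 and 5.33. For miR-299 the share was 41.4% (38.3 to 44.5) against 11.8% (8.87 to 15.6), with 1.79 times the reads of miR-299 and 9.43 times those of miR-299*. For miR-154 it was 67.4% (63.1 to 71.5) against 42.5% (28.7 to 59.1), from 52 and 7 reads of miR-154 and 108 and 5.17 of miR-154*. For miR-485 and miR-154, but not for miR-299, the strand with the star was the more abundant one in induced nuclei.
miR-154: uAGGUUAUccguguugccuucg
miR-154*: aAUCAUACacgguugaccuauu
miR-154 lay at chr12:109738438-109738459 and miR-154* at chr12:109738474-109738495 on the plus strand, within an intron of the long noncoding RNA Mirg. The intervals overlapped for the other Dlk1-Dio3 hairpins, miR-411 with 25.6% against 22.1% and miR-136 with 24.5% against 23.0%. They overlapped too for miR-140, a miRNA known from cartilage, with 64.8% against 62.1%. Of all 11 Dlk1-Dio3 hairpins measured, 6 had a lower and 5 a higher share with doxycycline, and of the other 53 hairpins 52 had a lower and 1 a higher share. That grouping was made after the values were seen and was not tested.

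Hairpins named by -5p and -3p arms, for which neither strand had been called the scarcer, were mixed. Of 69 such hairpins 27 had enough reads, and the scarcer arm was taken as the one with fewer reads in the induced total fraction. Choosing it by reads with doxycycline, though in other libraries, favours a lower share with doxycycline. Its share had a median of 28.9% with doxycycline and 38.7% without, was lower in 15 hairpins and higher in 12, and had intervals apart in 12 lower and 5 higher. The share of miR-290-3p in its hairpin was 2.26% with doxycycline and 74.7% without. The share of miR-125a-3p was 10.8% against 89.1%, and that of miR-337-3p 44.5% against 97.3%. In the other direction, miR-296-5p had 29.1% against 6.33% and miR-292-3p 27.7% against 23.2%.

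The same comparison in the total fraction used other libraries and its values stand here side by side. Of 58 hairpins with enough reads there, 49 (84.5%) had a lower starred share with doxycycline with intervals apart, and the medians were 4.18% with doxycycline and 37.7% without. In the 54 hairpins measured in both fractions the share was lower with doxycycline in both for 49, higher in both for 3, and opposite for 2. For miR-295 it was 2.09% against 51.4% in the total fraction, and for miR-30b 11.7% against 86.7%. miR-193 had 26.9% against 79.2%, so its share with doxycycline was higher than the 4.40% in nuclei. For miR-293 the total fraction had 16.8% against 38.6%, both below the nuclear 25.9% and 54.5%. miR-485 had 81.1% against 16.7% in the total fraction, but from only 6 mean reads without doxycycline.

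**Figure D3:**
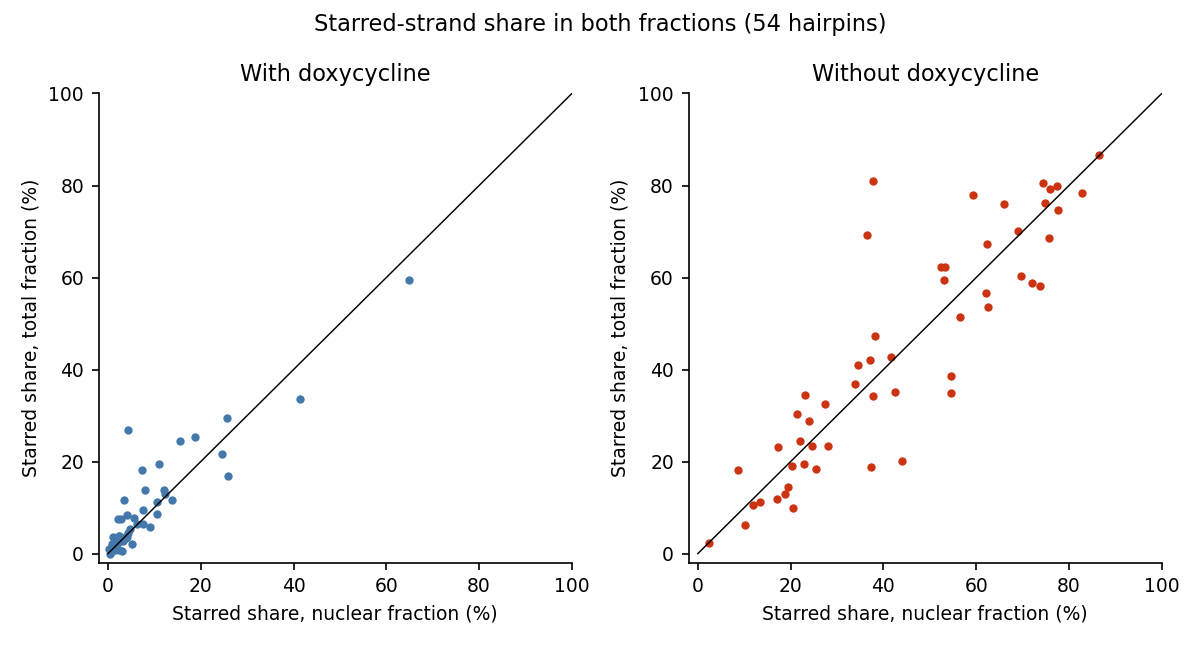
Starred-strand share of 54 hairpins in the nuclear (x axis) and the total fraction (y axis), in percent of the hairpin's reads, with doxycycline (left) and without (right); the line marks equal shares. With doxycycline most points lie near the origin, at medians of 3.76% in nuclei and 4.18% in the total fraction, and without it they spread along the line to 86.4% and 86.7% for miR-30b.

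Across all 371 entries, 330 (88.9%) had more reads with doxycycline, 229 (61.7%) had at least 10 times more, and 41 (11.1%) had fewer. The split into more and fewer is partly set by the minimum. Entries that reached 10 reads with doxycycline alone had more reads with it by definition, and the 8 that reached it only without had fewer. Among the 167 entries with at least 10 reads in both columns, 19.8% had fewer reads with doxycycline. The median ratio was 22.8 for the 227 unmarked entries, 14.8 for the 80 entries with a -5p or -3p name and 2.86 for the 64 starred entries. At least 10 times more reads were seen for 167 unmarked, 48 -5p or -3p and 14 starred entries. The ratio was larger for entries that were abundant in induced nuclei, with a median of 4.08 among 95 entries of 10 to 30 reads with doxycycline and 52.4 among 49 entries of at least 1000. Since reads with doxycycline are also the numerator, this order is partly built in. Within each of these ranges of abundance the starred entries had the smaller median ratio, 1.77 against 4.78 for unmarked entries at 10 to 30 reads and 3.47 against 16.95 at 30 to 100. The gap was least at 100 to 300 reads, 18.7 over 7 starred entries against 22.2 over 41 unmarked, and at least 1000 reads were reached by 1 starred entry only.

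**Figure D4:**
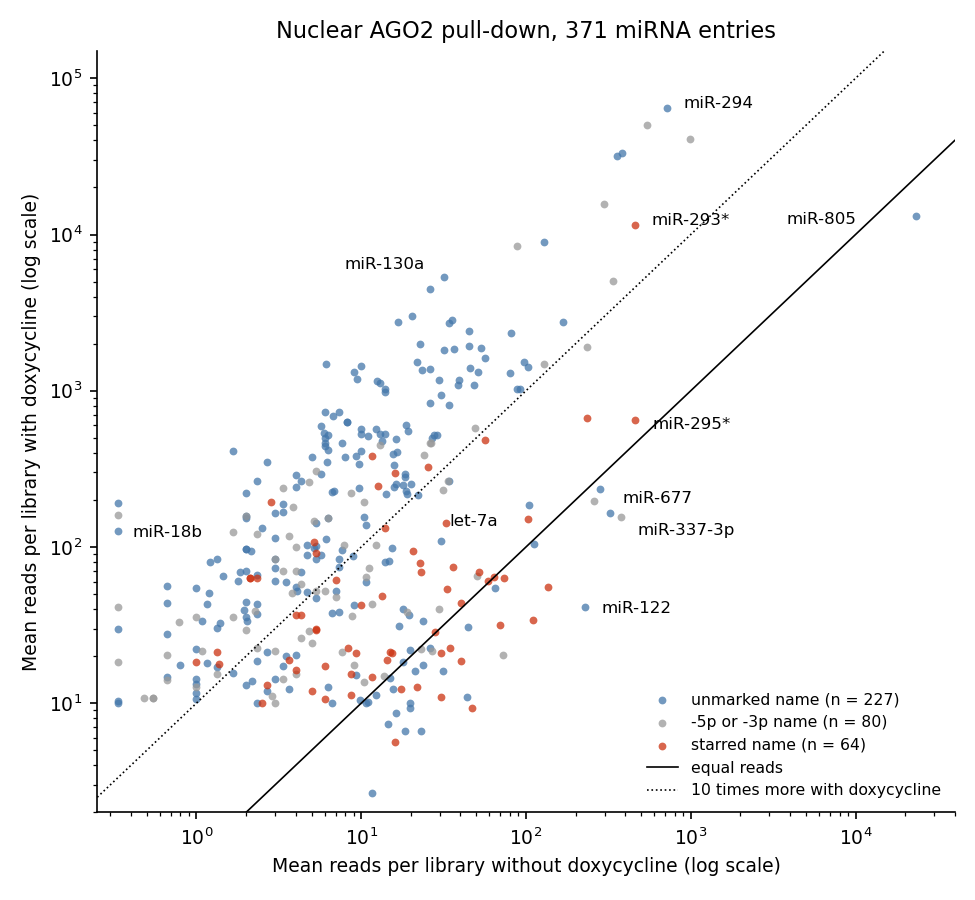
Mean reads per library without (x axis) and with doxycycline (y axis) for the 371 entries, both on log scales, coloured by kind of name, with lines at equal reads and at 10 times more. Unmarked entries mostly lie above the dotted line (167 of 227), starred entries mostly below it (50 of 64), and miR-805, miR-337-3p, miR-677 and miR-122 lie under the line of equal reads.

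To set entries against each other, mean counts were also scaled by TMM, which puts the centre of all entries near 0, so that a log2 fold of 0 stood for 15.6 times the reads. On this relative scale 113 entries (30.5%) lay 2-fold or more higher with doxycycline and 125 (33.7%) as far lower, with a median log2 fold of 0.04. This split depended on the scaling. It was 151 higher and 107 lower by library totals, 60 and 171 by totals without miR-805, and 301 and 15 without scaling, whose medians were 0.55, -0.87 and 4.01. Of the starred entries 2 were higher and 45 lower (median -2.45), of the unmarked entries 91 higher and 54 lower (median 0.54). Among the entries called lower, 84 still had more reads with doxycycline.

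Among entries with at least 10 reads in both columns, miR-106b, miR-130a, miR-93, miR-17 and miR-18a had the highest folds, and 4 of these 5 come from clusters known to drive proliferation. miR-17, miR-20a, miR-20b, miR-93, miR-106a and miR-106b, from the miR-17-92 cluster and its paralogues, share the seed AAAGUGC. That seed is the AAGUGCU of miR-294 moved by 1 base, and 4 of the 6 are shown with miR-130a, which has an overlapping seed.
miR-106b: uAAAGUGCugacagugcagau
miR-17: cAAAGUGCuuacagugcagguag
miR-93: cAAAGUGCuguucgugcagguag
miR-106a: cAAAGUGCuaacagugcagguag
miR-130a: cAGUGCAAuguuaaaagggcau
miR-106b lay at chr5:138165787-138165807 within an intron of Mcm7 and miR-93 at chr5:138165574-138165596 within an exon of it, both on the minus strand, and miR-17 at chr14:115043684-115043706 within an exon of Mir17hg. Together the 6 had 14716 reads with doxycycline and 116 without, and ratios from 50.2 for miR-20a to 243 for miR-106a. miR-106a had 1487 and 6.11 reads (ratio interval 157 to 419). miR-106b had 4456 and 26.3 reads, a ratio of 169, and miR-130a 5333 and 32.0, a ratio of 167 (136.4 to 205.9). By contrast, miR-92a and miR-25, which come from the same transcripts but have the seed AUUGCAC, had ratios of 16.4 and 15.6, while miR-363 with that seed reached 246 from 410 and 1.67 reads. The ratios within that seed family thus ran from about the centre of all entries to well above it. The smallest uninduced counts make such ratios imprecise. miR-18b had a mean of 127 reads per library with doxycycline, but only 1 read summed over all uninduced libraries. As these are a mean and a sum, the ratio is not 127 but larger. Taken on counts of the same kind, it had an interval from 68.2 to 15127.

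Among the lists of miRNAs, the miR-290 cluster and the proliferation clusters miR-17-92, miR-106a-363 and miR-106b-25 had the largest ratios of summed reads. The ratio was 50.8 (49.97 to 51.59) for the 14 entries of miR-290, 40.7 for miR-17-92, 43.1 for miR-106a-363 and 54.4 for miR-106b-25, of which miR-17-92 and miR-106a-363 share miR-19b and miR-92a. These sums rest on a few abundant entries. By the median ratio per tested entry the order differed, with 32.4 for miR-290, 94.0 for miR-106a-363, 29.7 for the Sfmbt2 intron and 29.2 for Dlk1-Dio3, but 19.5 for miR-17-92 and 18.7 for miR-106b-25. On the relative scale 7 of the 14 miR-290 entries lay 2-fold or more higher and 4 lower, beside the 30.5% and 33.7% of all entries. For miR-17-92, 5 of 11 were higher and 4 lower, and all 4 lower were starred, and for miR-106b-25 2 of 5 were higher and 1 lower. The miR-302 and miR-367 cluster, which marks primed pluripotent cells and was also listed for embryonic stem cells, was scarce. It had 447 reads against 22.5, a ratio of 19.9, below that of the Sfmbt2 intron. The defining cluster of the labelled cell type, miR-290, gave 263341 of the 400794 induced reads. It was also abundant without doxycycline, with 5186.7 of 36329.9 reads, of which 13196 were not miR-805. The 8 most abundant entries of the 2 columns had 6 in common. Of the Dlk1-Dio3 entries 30 of 64 were higher and 14 lower (summed ratio 16.97), and of those in the Sfmbt2 intron 15 of 33 were higher and 3 lower (summed ratio 26.0). Without scaling, most of these entries had more reads with doxycycline whatever their call, only 1 of each list having fewer.

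Markers of other cell types were present in both columns, and their part in the results was not tested. let-7, which accumulates as cells differentiate, had 517 reads with doxycycline and 125 without, a ratio of 4.15 (3.70 to 4.66), and of its 7 tested entries none was at least 2-fold higher and 4 were lower, against 30.5% and 33.7% of all entries. let-7a had 110 and 30.6 reads, a ratio of 3.59, and let-7g 87.1 and 8.94, a ratio of 9.74. Over the 7 let-7 entries with the seed GAGGUAG the ratios ran from 1.89 to 27.8. The lowest was let-7i, with 36.7 and 19.4 reads. The blood markers had 3635 and 423 reads, a ratio of 8.59, nearly all from miR-142, whose 5p arm had 1915 and 236 and whose 3p arm had 1479 and 128.7. Fibroblast and mesenchymal markers had 2970 and 303.5 reads, a ratio of 9.79, and neural markers 5255 and 233, a ratio of 22.6. The median ratio per tested entry was lower, 6.02 and 13.8. Of 9 tested fibroblast entries 1 was at least 2-fold higher and 6 were lower. Of 11 neural entries 4 were higher and 3 lower, against 30.5% and 33.7% of all entries. Muscle and liver markers had 617 and 288.5 reads, a ratio of 2.14, but miR-122 held 228 of the uninduced reads, and without it the list had 575.5 and 60.8 reads, a ratio of 9.46. These sums hid a contrast between strands. The starred entries of the fibroblast, neural and miR-200 lists had fewer reads with doxycycline, 69.8 against 148, 68.7 against 132.3 and 51.7 against 112. The other entries of the same lists had 18.7, 51.5 and 30.4 times more. Single hairpins held much of this in the fibroblast and neural lists. miR-21* was the 1 tested starred fibroblast entry, with 55.3 and 135.8 reads. miR-21 gave 2354 of the 2900 induced fibroblast reads without a star. miR-124* had 34.0 and 110 of the neural starred reads, and miR-124 gave 2848 of the 5186 induced neural reads without a star. No list had all of its entries at 0 in either column. With doxycycline 1 fibroblast and 1 Dlk1-Dio3 entry were at 0. Without it 1 Dlk1-Dio3 entry, 2 of the Sfmbt2 intron and 1 Drosha- or Dicer-independent entry were at 0.

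**Figure D5:**
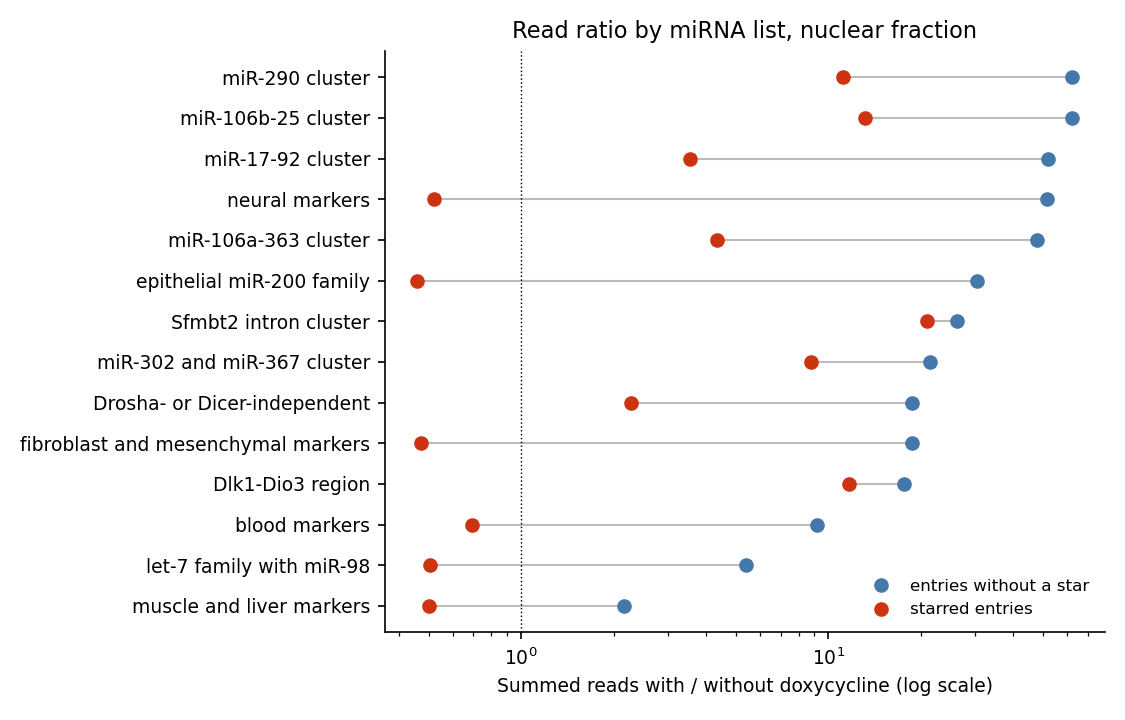
Ratio of summed nuclear reads with to without doxycycline (log scale) for the 14 lists, separately for starred entries and for entries without a star; the dotted line marks equal reads. In all 14 lists the starred entries have the smaller ratio, from 0.46 in the miR-200 family to 20.97 in the Sfmbt2 intron cluster, but in 3 lists (let-7, muscle and liver, Drosha- or Dicer-independent) every starred entry was below the minimum of 10 reads.

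The 41 entries with fewer reads after induction comprised 24 unmarked, 12 starred and 5 -5p or -3p names, and for 27 of them the counting interval excluded equal reads. Of the 24 unmarked entries, 22 had miRNA numbers of 600 or above, out of 54 tested unmarked entries with such numbers, against 2 of the 173 with lower numbers or let-7 names. The number 600 was chosen after the values were seen. The 2 were miR-122, the main miRNA of liver, and miR-1, a muscle miRNA. miR-805 was the largest, with 13121 reads with doxycycline and 23134 without, a ratio of 0.567, and it had 4494 and 5338 in the total fraction. miR-122 had 41.2 and 228 reads, a ratio of 0.181, and 59.0 and 74.3 there. Directly after miR-805 by uninduced reads, and above miR-122, came a strand of the Dlk1-Dio3 region and a miRNA annotated inside a small nucleolar RNA.
miR-337-3p: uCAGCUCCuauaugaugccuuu
miR-337-5p: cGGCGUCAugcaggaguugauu
miR-677: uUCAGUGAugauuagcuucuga
miR-337-3p, at chr12:109585850-109585871 on the plus strand, had 157 reads with doxycycline, 0.413 times those without. In the total fraction its order was the opposite, 109 with and 13.7 without, so the excess without doxycycline was in the nuclear columns alone. Its partner miR-337-5p had 195 and 10.3 nuclear reads. miR-677, at chr10:128085291-128085312 on the plus strand within an intron of Atp5b, had 164 and 322 reads, a ratio of 0.51, and 39.3 and 52.0 in total. Among these 41, 18 had fewer reads with doxycycline in the total fraction too, 22 had more and 1 had equal reads. The minimum of 10 was reached only without doxycycline by 8 of them, and just inside it stood miR-713 with 10 and 6.67 reads and miR-483 with 10 and 2.33, just outside it miR-1981 with 9.67 and 3.00 and miR-1906 with 7.33 and 9.67.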

How the data were processed

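The deposited table held expected counts (estimated read counts per miRNA entry), which the authors averaged over each group into 1 column. The 3 libraries behind a mean were read off the values, of which 78.4% (nuclear, induced) and 80.6% (uninduced) are whole to within 1e-06 after multiplication by 3. The others hold fractions of reads, so single values of near-identical copies such as miR-467a are uncertain. The submitters' processing notes name TopHat, bcl2fastq 2.17.1 and mm10, and how reads were counted is not given in the sources used here. The labels call the second fraction total, while the protocol speaks of a cytoplasmic one, and this was not settled.

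Read ratios are mean counts with over without doxycycline, with 95% Clopper-Pearson intervals on mean counts times 3, rounded to whole reads. Relative log2 folds used TMM factors (1.19 and 0.840) from edgeR 4.0.16 in R 4.3.3. Starred shares have 95% Wilson intervals. Entries at 0 were set to 3 reads over the group, which touched no tested entry. A 2-fold size and intervals that do not overlap were used to count, and are not replicate tests. PCR reads without molecular identifiers are not independent molecules, which the intervals do not cover. The script was tested on simulated counts. Calculations and figures used Python 3.11.15 with SciPy 1.17.1, pandas 2.3.3, numpy 2.4.6 and matplotlib 3.10.9.

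Named entries were the 8 most abundant per column, the 8 highest and 8 lowest folds among entries with 10 reads in both columns, the 8 most abundant with fewer reads, the hairpins with most reads or the largest changes, the 2 most abundant of each of the 14 lists, and seed families; further names were chosen after their values were seen. The members and lists were chosen with earlier results of these data known. RefSeq mature sequences were matched by name for 418 of 689 entries.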

Additional observations from a re-analysis of the deposited data

How the results depend on the processing

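No paired analysis was possible because the table gives 1 mean column per group, and for the same reason no replicate could be left out. The shares of reads from entries with a 5′ U were not computed, since that check is void: 74.7% of tested entries had a RefSeq sequence, under the 80% needed. With median-ratio (RLE) factors every count stayed within 1.5 times. The count at least 2-fold higher was 60 by totals without miR-805, 301 without scaling, 61 with 10 reads required in both columns, 247 with no minimum and 75 with a minimum of 50, and the count lower was 15 without scaling, 66 in both columns, 301 with no minimum and 55 at 50. The median log2 fold was 0.55 by library totals, -0.87 by totals without miR-805, 4.01 without scaling, 0.32 in both columns, -0.43 with no minimum and 0.20 at 50. Entries with fewer reads made up 11.1% of those counted, 22.7% with no minimum, 19.8% in both columns and 5.60% at 50. The gap between the medians of starred and unmarked entries, -2.99, was -1.79 with no minimum. Alternatives added after seeing the data gave -1.43 at 10 to 30 reads with doxycycline, -0.25 at 100 to 300 and -1.17 at 1000 or more. With values that are whole after multiplication by 3, 23 of 30 hairpins had a lower starred share with intervals apart. Those with a higher share and intervals apart, 3 in all, were 1 at a minimum of 30 reads, 8 with -5p and -3p hairpins added and 1 in the total fraction. Without scaling, the log2 fold turned positive for 12 of 67 named entries, of which 6 had been at least 2-fold lower: miR-295* (0.48), let-7a (1.84), miR-154 (2.89), miR-299 (0.84), miR-485 (0.026) and miR-294* (1.5002). It turned positive for 3 by library totals, and negative for 14 by totals without miR-805 and for 1 by RLE factors, all of them within 2-fold before. The cause of these changes was not tested, other than that minimums change how many entries are counted. Uninduced miRNA reads were few, which limits the precision of ratios.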
